A study of Mus musculus with 4 samples.

Results

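Reelin, its receptors and the adaptor that relays its signal were examined in single nuclei of the medial neocortex of mouse embryos. The 4 genes are *Reln*, *Vldlr*, *Lrp8* and *Dab1*, matched by gene symbol among the 56884 genes of the count tables. Reelin is a large glycoprotein secreted in the developing cortex by Cajal-Retzius cells of the marginal zone and, later, by interneurons. It binds the lipoprotein receptors VLDLR and APOER2 (encoded by *Lrp8*) on migrating neurons and radial glia. Receptor clustering leads Src-family kinases to phosphorylate DAB1, and phosphorylated DAB1 recruits further adaptors before it is ubiquitinated and degraded. Loss of reelin, of DAB1 or of both receptors disturbs the layering of cortical neurons in mice.

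Nuclei were taken at E16.5 from 2 Dnmt1 KO libraries (genotype *Sst-Cre/tdTomato/Dnmt1 loxP2*) and 2 control libraries (*Sst-Cre/tdTomato*), so that all groups shared the *Sst-Cre* driver and the tdTomato reporter on a C57BL/6J background. *Cre* was driven by the *Sst* locus, so the loxP-flanked *Dnmt1* was deleted in *Sst*-expressing postmitotic cells and most nuclei came from cells that were not targeted. Both Dnmt1 KO libraries and control replicate 1 belonged to batch 1 with 8 sublibraries each, and control replicate 2 was the only library of batch 2, with 2 sublibraries. The 2 numbered replicates of a genotype are, by the study's description, brains of separate animals, and the labels do not tie a library to a litter.

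After filtering on transcripts per barcode, 29656 of 1127729 barcodes were retained, 4905 to 12064 per library, with a median of 12274 to 21140 transcripts per nucleus, the highest being that of control replicate 2. The libraries shared 0 barcodes. *Dnmt1*, the targeted gene, was at 61.8 and 47.5 CPM (its transcripts scaled to a common total of summed transcripts) in the Dnmt1 KO libraries and at 59.6 and 56.0 CPM in the controls. *Sst*+/*Gad2*+ nuclei held 76.1 and 46.1 CPM of it against 81.2 and 66.5 CPM, so the groups overlapped in both sums. The counts are per gene and do not separate transcripts that lack the deleted exons, so they do not check the labels.

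No deposited annotation of cell types was used. Nuclei were assigned to gates by marker transcripts that do not include the 4 genes. The Cajal-Retzius gate required *Trp73*, the interneuron gate *Lhx6* or *Adarb2* with *Gad1* or *Gad2*, the progenitor gate *Eomes* (intermediate progenitors) or *Pax6* with a radial glia gene, and the layer neuron gate *Neurod2*, *Neurod6* or *Slc17a7* with a gene of the deep or upper layers. Interneurons were split into those with *Lhx6* (named MGE here, after the medial ganglionic eminence) and those with *Adarb2* alone (CGE, caudal ganglionic eminence), and layer neurons into deep (*Fezf2*, *Tle4* or *Foxp2*) and upper (*Cux2* without these). Markers that no gate used were higher in the Cajal-Retzius and interneuron gates than in layer neurons. In the Cajal-Retzius gate they lay mainly in a part of the nuclei, as given below. The summed level of 7 Cajal-Retzius markers was 1399 to 2097 CPM in the *Trp73* gate and 14.6 to 19.3 CPM in layer neurons, and that of 9 interneuron markers was 13273 to 16281 CPM in the interneuron gate and 26.6 to 54.4 CPM in layer neurons. Between 10.9% and 17.5% of the nuclei of a library met the conditions of more than 1 gate and were placed in the first.

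DNMT1 acts on CpG dinucleotides, so the stretch before the start of *Reln* is shown for its CpG content. *Reln* (chromosome 5, 22089452 to 22549700 on the minus strand, GRCm39) is a protein-coding gene, and the 250 bases upstream of its RefSeq start lie at chr5:22344706-22344955 on the minus strand of the earlier build GRCm38.p6. They are written below in the direction of transcription, with each CG, a motif that reads the same on both strands, in capitals.
Reln: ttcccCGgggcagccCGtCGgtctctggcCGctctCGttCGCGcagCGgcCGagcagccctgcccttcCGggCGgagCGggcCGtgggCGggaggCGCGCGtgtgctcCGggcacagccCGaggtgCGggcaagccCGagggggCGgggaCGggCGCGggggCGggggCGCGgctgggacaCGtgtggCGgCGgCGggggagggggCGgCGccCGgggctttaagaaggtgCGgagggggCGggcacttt
The stretch holds 37 CG, more than 97.8% of the 32851 RefSeq stretches of this length, whose median was 6 and of which 92.1% hold at least 1. *Vldlr* (chromosome 19, 27193862 to 27231631, plus strand), *Lrp8* (chromosome 4, 107659066 to 107734038, plus strand) and *Dab1* (chromosome 4, 103476556 to 104602041, plus strand) have several RefSeq starts each, with 5 and 18 CG for *Vldlr*, 18, 5 and 2 for *Lrp8*, and 10 and 40 for *Dab1*. Methylation was not measured in these nuclei. The genes span 460 kb (*Reln*), 37.8 kb (*Vldlr*), 75.0 kb (*Lrp8*) and 1125 kb (*Dab1*), and each overlaps at least 1 annotated gene on the opposite strand, whose reads could not be told apart where counting did not use strand.

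The first question was where the ligand is transcribed. In the Cajal-Retzius gate, *Reln* reached 20303 and 13005.5 CPM (Dnmt1 KO replicates 1 and 2) and 14373 and 11602 CPM (control replicates 1 and 2), and it ranked as the first or second most abundant of all genes there. In the interneuron gate it was at 833, 461, 374 and 703 CPM, in the same order of libraries. In layer neurons it was at 99.4, 38.6, 34.7 and 28.1 CPM. Every library thus placed the Cajal-Retzius gate far above the interneuron gate and the interneuron gate above layer neurons. The log2 fold change of *Reln* between the Cajal-Retzius gate and layer neurons was 8.83 (SE 0.324, edgeR adjusted p 1.11e-15), and it was 4.13 (SE 0.261, edgeR adjusted p 1.43e-11) between interneurons and layer neurons. Between the Cajal-Retzius gate and interneurons it was 4.70 (SE 0.276, edgeR adjusted p 8.01e-12). These 3 calls were kept under all 11 alternatives, with log2 fold changes of 8.71 to 9.55, 3.82 to 4.46 and 4.50 to 5.44.

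**Figure D1:**
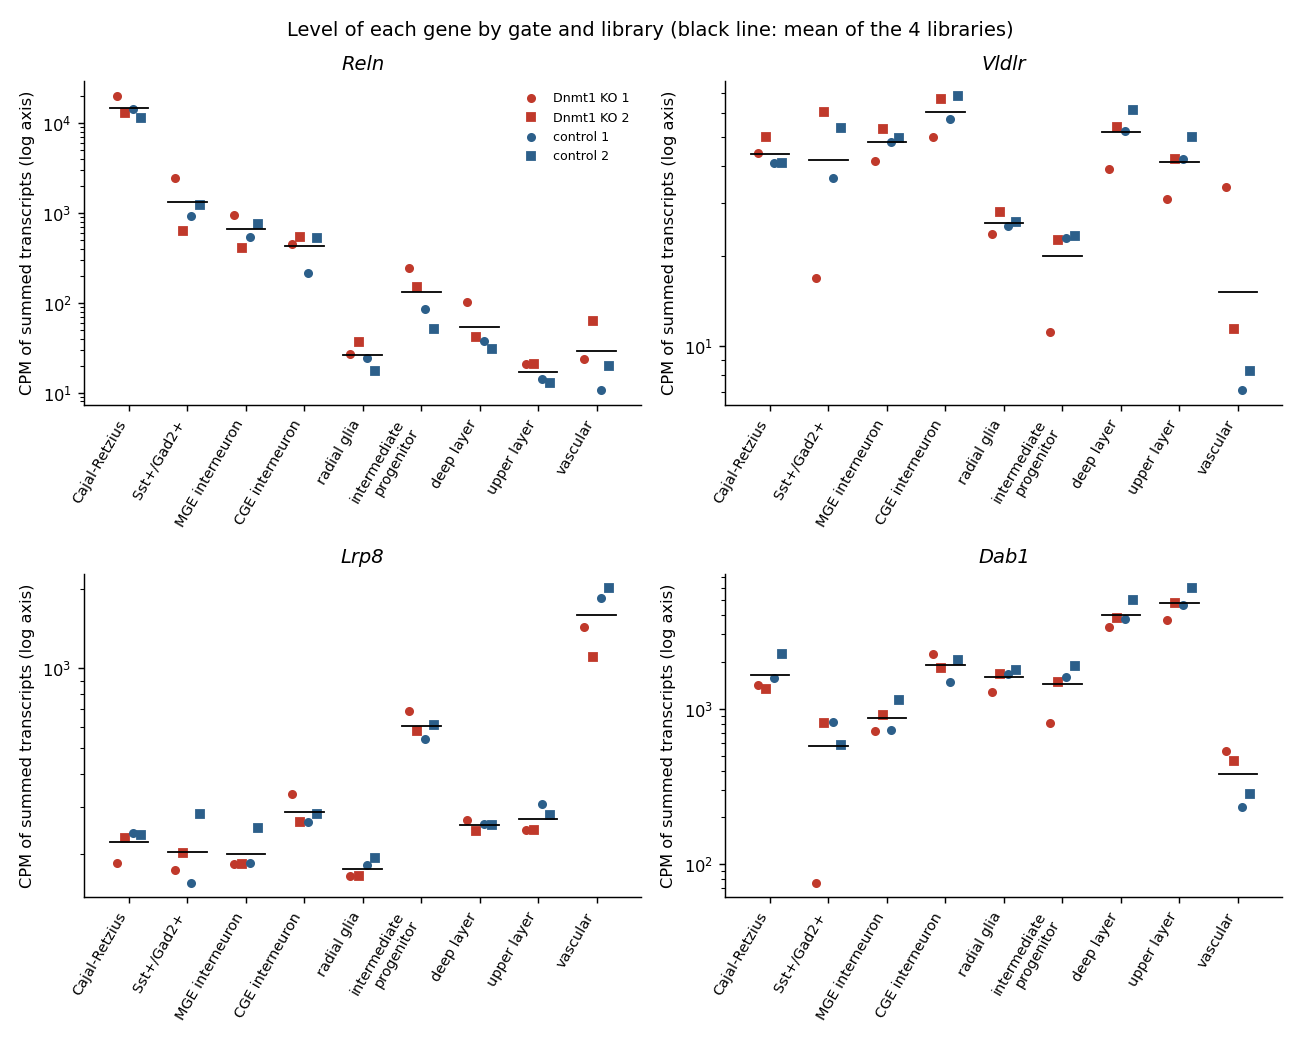
Level of *Reln*, *Vldlr*, *Lrp8* and *Dab1* in each gate, as CPM of summed transcripts on a log axis, 1 point per library (red, Dnmt1 KO; blue, control; circles, replicate 1; squares, replicate 2) and a black line at the mean of the 4 libraries. *Reln* lies between 11602 and 20303 CPM in the Cajal-Retzius gate, above every other gate.

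The Cajal-Retzius gate held 2.46% and 3.05% of the nuclei of the Dnmt1 KO libraries and 1.50% and 2.77% of those of the controls. The same nuclei held 80.2% and 81.8% of the *Reln* transcripts of the Dnmt1 KO libraries and 76.1% and 80.8% of those of the controls. The interneuron gate added 6.84%, 9.96%, 15.7% and 13.6% (Dnmt1 KO replicates 1 and 2, control replicates 1 and 2), and layer neurons, the largest gate, 3.16% to 6.07%. With a filter on mapped reads in place of transcripts, the share of the Cajal-Retzius gate in control replicate 2 was 62.5% and that of interneurons 25.2%.

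**Figure D2:**
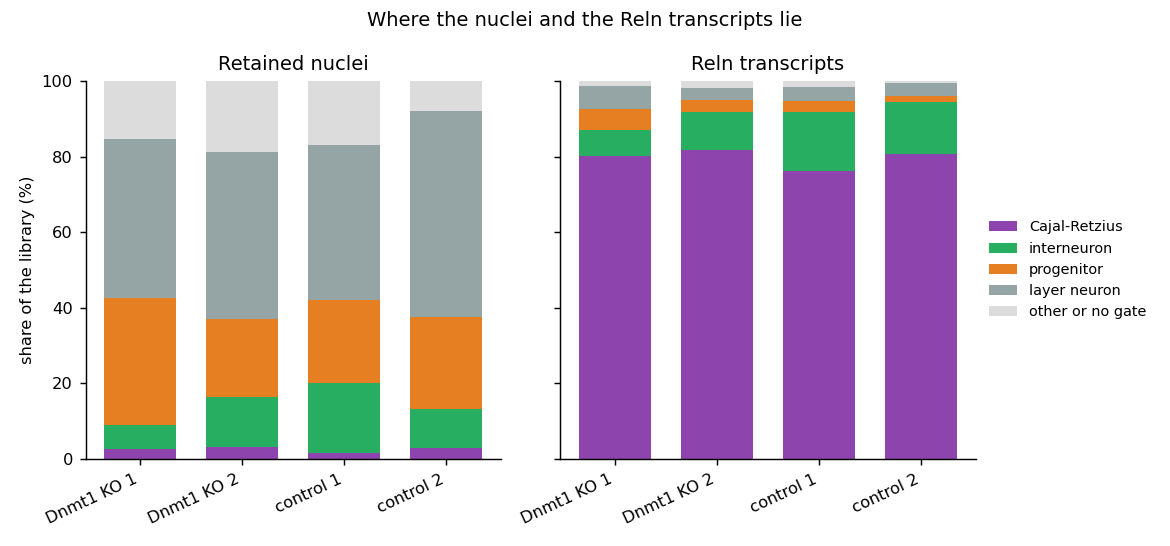
Share of retained nuclei (left) and of *Reln* transcripts (right) in each gate, in percent of each library, with the 4 libraries as bars. The Cajal-Retzius gate holds 1.50% to 3.05% of the nuclei and 76.1% to 81.8% of the *Reln* transcripts.

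Within the Cajal-Retzius gate, *Reln* differed between nuclei with many *Trp73* transcripts and nuclei with a single one. In nuclei with 5 or more *Trp73* transcripts, *Reln* was at 28487 and 21166 CPM in the Dnmt1 KO libraries (89 and 192 nuclei) and at 22429.6 and 25797.5 CPM in the controls (58 and 48 nuclei). In nuclei with a single *Trp73* transcript it reached only 105 and 274 CPM in the former and 244 and 120 CPM in the latter (41, 108, 42 and 79 nuclei). In every library the value with a single transcript lay below that of the interneuron gate of the same library. With 2 to 4 *Trp73* transcripts (9, 68, 6 and 9 nuclei) *Reln* was at 8884, 1411, 6439 and 39.3 CPM. In control replicate 2 that was below the value with a single transcript. Nuclei with at least 10 *Reln* transcripts made up 69.8% and 49.5% of the gate in Dnmt1 KO and 59.4% and 39.7% in control, and they held 99.78% of its *Reln* in control replicate 2 and more in the other libraries. The 7 Cajal-Retzius markers summed to 2547 to 2850 CPM in them and to 24.7 to 35.7 CPM in the other nuclei of the gate.

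**Figure D3:**
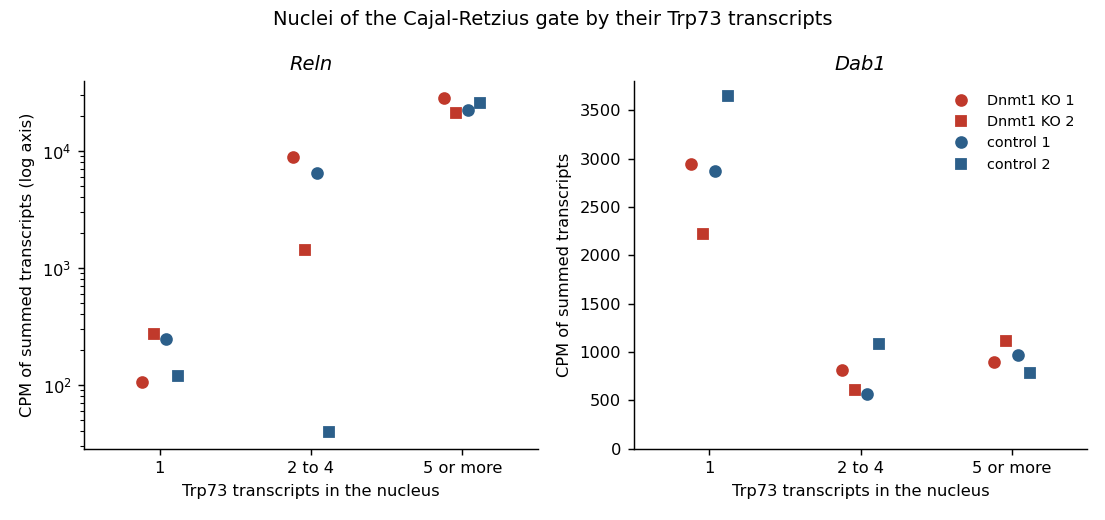
*Reln* (left, log axis) and *Dab1* (right, linear axis) in nuclei of the Cajal-Retzius gate, as CPM of summed transcripts, by the number of *Trp73* transcripts in the nucleus, 1 point per library. With 5 or more *Trp73* transcripts all libraries lie between 21166 and 28487 CPM for *Reln* and between 780.4 and 1113 CPM for *Dab1*.

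The interneuron gates were the second site of *Reln*. In *Lhx6* interneurons it was at 965 and 408 CPM in the Dnmt1 KO libraries and at 549 and 759 CPM in the controls, and in *Adarb2* interneurons at 451 and 548 CPM against 218 and 524 CPM. The ranges overlapped, and the log2 difference of 0.71 between MGE and CGE gates did not pass the threshold (SE 0.319, edgeR adjusted p 0.144). *Sst*+/*Gad2*+ nuclei, in which *Cre* should be active, numbered 16, 136, 40 and 27, with 588 to 1356 *Reln* transcripts in a library. In *Lhx6* interneurons without an *Sst* transcript *Reln* was at 856, 365, 515 and 714.5 CPM. Nuclei with at least 10 *Reln* transcripts were 34.7%, 16.2%, 13.7% and 30.4% of the interneuron gate and held 83.4% to 94.2% of its *Reln*.

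In progenitors, *Reln* was unevenly spread. Intermediate progenitors (*Eomes*) were at 248 and 149 CPM (Dnmt1 KO) and 84.8 and 51.6 CPM (control), against 17.6 to 36.8 CPM in radial glia. Radial glia against intermediate progenitors gave a log2 fold change of -2.28 (SE 0.341, edgeR adjusted p 7.98e-06). Taken as the equal-weight mean of both gates, progenitors were higher than layer neurons by 0.62 on the log2 scale (SE 0.241, edgeR adjusted p 0.0267). That call was lost with the filter on mapped reads, without Dnmt1 KO replicate 2 and without control replicate 1 (adjusted p 0.0651, 0.129 and 0.0864). In the intermediate progenitor gate, 59.4% to 86.6% of the *Reln* transcripts lay in nuclei with at least 10 of them, which were 1.80% to 6.85% of that gate. The 7 Cajal-Retzius markers summed to 84.2 to 123 CPM in those nuclei and to 31.7 to 50.6 CPM in the remaining intermediate progenitors. Whether these are progenitors or nuclei of another kind with an *Eomes* transcript was not tested. With every nucleus thinned to 1500 transcripts, at least 1 *Reln* transcript was seen in 10.2% and 6.57% (Dnmt1 KO) and 4.16% and 5.80% (control) of intermediate progenitors. In vascular nuclei, the background population described next, these shares were 2.74%, 2.48%, 5.26% and 5.00% (from 2 to 7 nuclei with a transcript), and control replicate 1 lay below its own.

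At least 1 *Reln* transcript was seen in 12.2% to 16.2% of radial glia and 11.1% to 15.3% of upper-layer nuclei. In vascular nuclei, a population that should lack it, the share was 10.5% to 25.0% (from 10.5%, exact 95% binomial interval 4.66 to 19.7%, n = 76 nuclei, to 25.0%, interval 12.7 to 41.2%, n = 40 nuclei; these intervals cover counting error only), at median depths of 9435 to 14492 transcripts against 11180 to 18233 in radial glia and 12286.5 to 19185 in upper-layer nuclei. With every nucleus thinned to 1500 transcripts the shares were 2.01% to 3.86% in radial glia, 0.847% to 2.21% in upper-layer and 2.48% to 5.26% in vascular nuclei. After thinning, upper-layer nuclei lay below the vascular share of their own library in every library and radial glia in 3 of 4. The exception was Dnmt1 KO replicate 2, with 3.86% of radial glia against 2.48% of vascular nuclei (16.2% against 11.7% before thinning). After thinning, deep-layer nuclei were at 8.78% and 3.94% (Dnmt1 KO) and 3.46% and 3.82% (control), against 2.74%, 2.48%, 5.26% and 5.00% in vascular nuclei of the same libraries. These vascular shares are 2 of 73, 7 of 282, 4 of 76 and 2 of 40 nuclei. Such numbers are too small to order the libraries or the gates by. Microglia, also taken as background, were at 0%, 2.33%, 0% and 25.0% after thinning, from only 6, 43, 9 and 4 nuclei. *Reln* in radial glia and upper-layer nuclei was thus not told apart from background. By share of nuclei after thinning, the same held for deep-layer nuclei of the control libraries, which lay below their vascular shares. Summed over vascular nuclei *Reln* was at 23.6, 63.7, 10.7 and 19.8 CPM, in Dnmt1 KO replicate 2 above the deep-layer level given next. In that library the endothelial and pericyte parts of the gate, defined below, were at 15.4 and 16.7 CPM (170 and 69 nuclei), under the deep-layer level. The vascular nuclei outside these parts thus raised the value. In summed level *Reln* was higher in deep-layer than in upper-layer nuclei by 1.50 on the log2 scale (SE 0.356, edgeR adjusted p 0.00457), on levels of 102.7, 41.7, 38.0 and 30.6 CPM against 20.9, 20.9, 14.1 and 12.8 CPM. That call was kept under all 11 alternatives (1.23 to 1.71). Nuclei with at least 10 *Reln* transcripts were 4.12% and 1.46% (Dnmt1 KO) and 1.58% and 1.75% (control) of the deep-layer gate. They held 44.8% to 56.3% of its *Reln*. The other deep-layer nuclei were at 47.4, 19.7, 21.4 and 16.2 CPM, against 20.9, 13.6, 11.8 and 11.8 CPM in the other upper-layer nuclei.

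*Lrp8* encodes APOER2, the receptor that neurons of the upper layers are known to need for their migration. In intermediate progenitors it was at 689 and 581.5 CPM (Dnmt1 KO replicates 1 and 2) and at 540.3 and 612 CPM (control replicates 1 and 2). In radial glia it was at 164, 165, 181 and 192 CPM, so every library was higher in intermediate progenitors. Radial glia differed from intermediate progenitors by -1.89 on the log2 scale (SE 0.0988, edgeR adjusted p 3.45e-12), a call kept under all 11 alternatives (-2.41 to -1.79). Layer neurons (244 to 268 CPM), interneurons (213 to 257 CPM) and the Cajal-Retzius gate (184 to 239 CPM) lay close together. In that gate *Lrp8* was at 192, 350, 260.3 and 284 CPM with a single *Trp73* transcript and at 166, 185, 221 and 141 CPM with 5 or more. With 2 to 4 (9, 68, 6 and 9 nuclei) it was at 422, 189.5, 336 and 607 CPM. *Lrp8* was lower than in layer neurons by 0.40 on the log2 scale in the Cajal-Retzius gate (SE 0.0859, edgeR adjusted p 0.000562) and by 0.24 in interneurons (SE 0.0685, edgeR adjusted p 0.00803). Without Dnmt1 KO replicate 2 or control replicate 1 the latter call was lost (adjusted p 0.0649 and 0.133).

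As the equal-weight mean of radial glia and intermediate progenitors, *Lrp8* differed from layer neurons by -0.03 on the log2 scale (SE 0.0678, edgeR adjusted p 0.714). Summed over the whole progenitor gate it had a mean of 416 CPM over the libraries, against 259 CPM in layer neurons, and was higher in every library. Among interneurons *Lrp8* was lower in the MGE than in the CGE gate, by 0.41 on the log2 scale (SE 0.0977, edgeR adjusted p 0.00397), and no longer passed with at least 2 transcripts per gate gene (-0.30, adjusted p 0.0596) or without Dnmt1 KO replicate 2 (adjusted p 0.0505).

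The highest *Lrp8* level of any gate was in vascular nuclei, a population examined only as background and described after its values were seen. It was at 1429 and 1105 CPM (Dnmt1 KO) and 1852 and 2005 CPM (control). Nuclei with at least 2 of the endothelial genes *Flt1*, *Kdr*, *Cldn5* and *Pecam1* (31, 170, 49 and 25 nuclei) held 2999.9 and 1754 CPM against 2732 and 3094 CPM. The rest of that gate with both pericyte genes *Rgs5* and *Pdgfrb* held 56.5, 15.0, 119 and 0 CPM (34, 69, 20 and 13 nuclei). Within vascular nuclei *Lrp8* thus lay with the endothelial markers. *Reln* in the same endothelial nuclei was at 9.08 to 19.3 CPM and *Vldlr* at 0 to 5.14 CPM.

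*Vldlr*, the other reelin receptor, had the lowest counts of the 4 genes, with 2416 to 7883 transcripts over all nuclei of a library. In layer neurons it was at 38.6 and 52.1 CPM (Dnmt1 KO) and 50.8 and 59.8 CPM (control). In interneurons it was at 43.7 to 58.1 CPM and in the Cajal-Retzius gate at 40.6 to 49.8 CPM. Within the latter gate it was at 54.2, 47.1, 71.8 and 52.9 CPM with a single *Trp73* transcript. With 5 or more it was lower in every library, at 42.4, 40.0, 26.7 and 29.1 CPM. With 2 to 4 (9, 68, 6 and 9 nuclei) it was at 9.38, 97.5, 0 and 22.5 CPM. That was the highest of these classes in Dnmt1 KO replicate 2 and the lowest in the other libraries. Progenitors had 17.3, 25.1, 23.8 and 24.3 CPM, below layer neurons in every library. Between progenitors and layer neurons *Vldlr* differed by -1.37 on the log2 scale (SE 0.0838, edgeR adjusted p 1.35e-12), and this call was kept under all 11 alternatives. Interneurons and layer neurons differed by 0.13 on the log2 scale (SE 0.0837, edgeR adjusted p 0.252). A lower level in the Cajal-Retzius gate than in interneurons, by 0.35 on the log2 scale (SE 0.111, edgeR adjusted p 0.0176), was lost without Dnmt1 KO replicate 2, control replicate 1 or control replicate 2 (adjusted p 0.124, 0.0788 and 0.0924). Among the gates of neurons and progenitors, *Lrp8* was thus highest in intermediate progenitors, and *Vldlr* was lower in progenitors than in layer neurons.

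*Dab1*, the intracellular adaptor, was highest in layer neurons. Upper-layer nuclei were at 3691 and 4774 CPM (Dnmt1 KO) and 4604 and 5921 CPM (control), and deep-layer nuclei at 3349.5 and 3809.8 CPM against 3764 and 4954 CPM. The difference between deep and upper layers did not pass the threshold (log2 -0.24, SE 0.155, edgeR adjusted p 0.332). Radial glia were at 1289 to 1779 CPM and intermediate progenitors at 804 to 1882 CPM. Between progenitors and layer neurons the log2 fold change of *Dab1* was -1.85 (SE 0.113, edgeR adjusted p 1.21e-12), between interneurons and layer neurons -1.83 (SE 0.113, edgeR adjusted p 9.66e-12), and between the Cajal-Retzius gate and layer neurons -1.55 (SE 0.145, edgeR adjusted p 8.49e-09). These calls were kept under all 11 alternatives, with values of -2.79 to -1.78, -2.46 to -1.75 and -2.55 to -1.46. The lowest of the first and last of these ranges came without nuclei that met more than 1 gate.

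Among interneurons, *Dab1* was lower with *Lhx6* (721, 906, 734 and 1130.3 CPM) than with *Adarb2* alone (2258, 1823, 1477 and 2053 CPM). The log2 difference was -1.05 (SE 0.157, edgeR adjusted p 4.17e-05), and it was -0.12 (adjusted p 0.823) when each gate gene needed at least 2 transcripts. In the Cajal-Retzius gate *Dab1* was at 1420.1, 1331, 1585 and 2246 CPM, but nuclei with 5 or more *Trp73* transcripts had 896, 1113, 965 and 780.4 CPM and those with a single *Trp73* transcript 2946, 2226, 2872 and 3648 CPM. With 2 to 4 *Trp73* transcripts (9, 68, 6 and 9 nuclei) *Dab1* was at 816, 611, 566 and 1079 CPM and *Reln* at 8884, 1411, 6439 and 39.3 CPM. In every library *Dab1* was thus highest in the nuclei with a single *Trp73* transcript. Between the other classes, *Dab1* was lower with 2 to 4 transcripts than with 5 or more in 3 of 4 libraries. Between the Cajal-Retzius gate and interneurons the log2 difference of *Dab1* was 0.28 (SE 0.133, edgeR adjusted p 0.110), it was 0.78 without nuclei called as doublets (adjusted p 0.000635), and it was -0.70 (adjusted p 0.000260) without nuclei that met more than 1 gate.

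**Figure D4:**
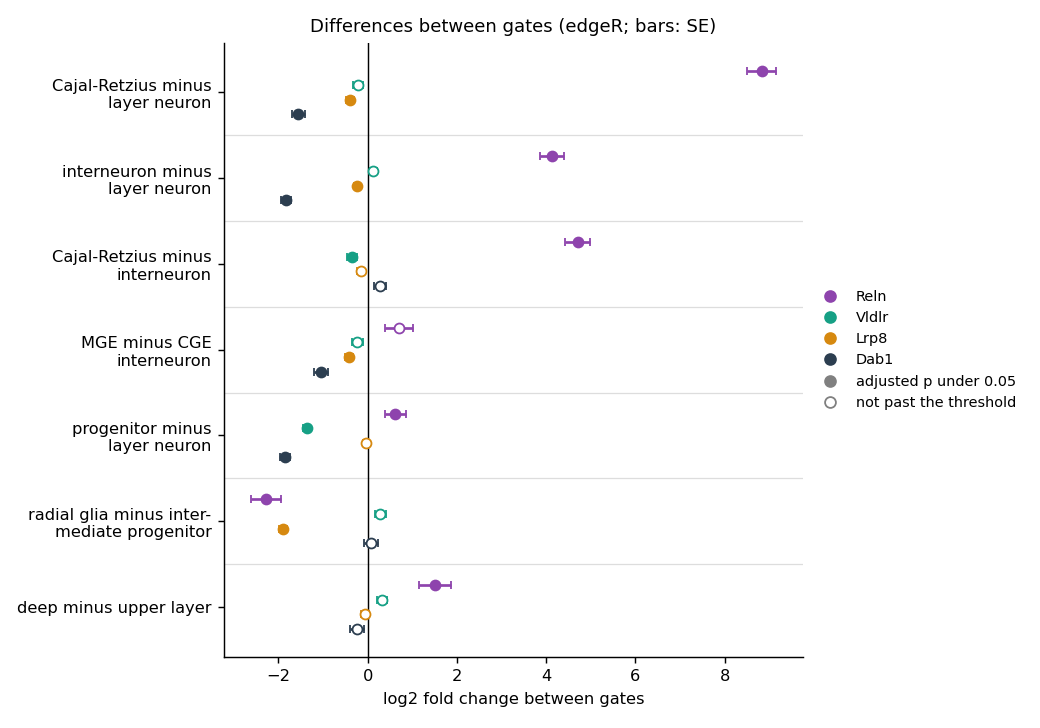
Log2 fold changes of the 4 genes between gates with their standard errors (edgeR, 4 libraries and 7 gates with library as a block). Filled points passed an adjusted p of 0.05. *Reln* reaches 8.83 in the Cajal-Retzius gate against layer neurons, and *Dab1* lies at -1.55 to -1.85 against layer neurons in the other gates.

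Counted over the comparisons between gates, 3 of the 4 genes passed the threshold in the Cajal-Retzius gate against layer neurons, where 44.9% of the 15952 genes tested did. For interneurons against layer neurons 3 of 4 passed against 37% of all genes, for the Cajal-Retzius gate against interneurons 2 of 4 against 34.2%, and for progenitors against layer neurons 3 of 4 against 67.3%. For MGE against CGE interneurons 2 of 4 passed against 17.3%, for radial glia against intermediate progenitors 2 of 4 against 48.2%, and for deep against upper layers 1 of 4 against 17%. With such shares among all genes, the sizes of the differences above say more than their number.

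Between genes, levels were set side by side per length. How intronic reads were assigned is not given, and whether counts scale with either length was not tested, so both lengths are shown. Per kb of gene span, the Cajal-Retzius gate had a mean of 32.2 CPM of *Reln*, 2.95 of *Lrp8*, 1.46 of *Dab1* and 1.16 of *Vldlr*. Layer neurons had 3.62 CPM per kb of *Dab1*, 3.46 of *Lrp8*, 1.33 of *Vldlr* and 0.109 of *Reln*. Per kb of exon, *Reln* was still first in the Cajal-Retzius gate (624 CPM per kb) and *Dab1* first in layer neurons (401 CPM per kb), and the order of the other genes changed in the Cajal-Retzius gate but not in layer neurons.

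A response to reelin needs the adaptor and a receptor in the same cell. A transcript of *Dab1* together with 1 of *Lrp8* or *Vldlr* was seen in 83.1% to 95.1% of upper-layer and in 77.0% to 91.2% of deep-layer nuclei. The shares were 61.9% to 81.2% of radial glia, 46.9% to 76.0% of intermediate progenitors, 53.3% to 81.9% of CGE and 36.7% to 64.6% of MGE interneurons. Control replicate 2, the deepest library, gave the highest share in each of these gates. With every nucleus thinned to 1500 transcripts, the shares were 29.3% to 34.7% in upper-layer, 19.3% to 26.9% in deep-layer and 3.03% to 8.71% in MGE interneuron nuclei. Upper-layer nuclei stayed above MGE interneurons in every library. In vascular nuclei the thinned shares were 4.11%, 6.03%, 5.26% and 15.0%, above those of MGE interneurons (3.03%, 5.71%, 5.45% and 8.71%) in 3 of 4 libraries. Vascular nuclei hold *Lrp8* themselves (35.6% to 57.9% of them after thinning, against 18.6% to 27.4% of MGE interneurons) and number 40 to 282 per library, so they are not a background for this pair of genes.

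Other genes of the pathway were taken from a list of 35, of which 34 were tested between gates. Of these, 18 differed between the Cajal-Retzius gate and layer neurons (5 higher, 13 lower; 44.9% of all genes did), with a median log2 fold change of -0.10 against 0.06 over all genes, and 16 differed between interneurons and layer neurons (4 higher, 12 lower; 37% of all genes did). *Adamts2* and *Adamts3*, which encode proteases that cleave reelin, were lower than in layer neurons in the Cajal-Retzius gate (log2 -1.80 and -1.53, edgeR adjusted p 8.95e-08 and 1.87e-06) and in interneurons (-2.22 and -1.37). *Nedd4l*, a ubiquitin ligase, was lower in the same gates, by 1.06 and by 0.64 on the log2 scale. *Yes1*, a Src-family kinase, was higher by 0.71 in interneurons than in layer neurons. *Thbs1* encodes a secreted protein that binds the reelin receptors. It was at 66.7, 34.4, 52.4 and 78.6 CPM in MGE interneurons and at 0.815 to 2.75 CPM in CGE interneurons (log2 5.08, SE 0.397, edgeR adjusted p 9.59e-09). In the Cajal-Retzius gate *Thbs1* and *Clu*, another ligand of these receptors, were highest in Dnmt1 KO replicate 2, at 9.26 and 11.0 CPM against 2.11 to 5.20 CPM in the other libraries. In this gate that library also held the most choroid plexus and cortical hem markers (1454 CPM, against 353, 142 and 81.4 CPM), and their part in the level of *Clu* was not tested.

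Between progenitors and layer neurons, 24 of 34 pathway genes differed (5 higher, 19 lower), a share near the 67.3% of all genes (median log2 fold change -0.18 against 0.02 over all genes). *Thbs1* (2.39) and *Clu* (2.00) were higher in progenitors, and *Mapt*, which encodes the microtubule protein tau (-2.15), *Mylip*, a ubiquitin ligase for lipoprotein receptors (-1.67), and *Adamts2* (-1.46) were lower. Between radial glia and intermediate progenitors, 17 differed (6 higher, 11 lower), again near the share of all genes (48.2%), among them *Thbs1* (2.44), *Clu* (2.29) and *Apoe* (1.56), higher in radial glia, and *Pik3r1*, a subunit of phosphoinositide 3-kinase (-1.25), and *Mapt* (-1.09), lower. Between MGE and CGE interneurons 7 differed (3 higher, 4 lower; 17.3% of all genes did), with *Pik3r1* (-1.30), *Adamts3* (-1.26), *Adamts2* (-1.12) and *Mylip* (-1.06) lower in the MGE gate. Between deep and upper layers 7 differed (4 higher, 3 lower; 17% of all genes did). *Plat*, the tissue plasminogen activator, which can cleave reelin (1.07), *Adamts3* (0.98) and *Pik3r1* (0.78) were higher and *Adamts2* (-1.17) and *Fyn*, a kinase of DAB1 (-0.47), lower in deep layers. Between the Cajal-Retzius gate and interneurons 15 differed (6 higher, 9 lower; 34.2% of all genes did), with *Clu* (1.14, in the gate with the choroid plexus markers of Dnmt1 KO replicate 2), *Dab2ip*, which encodes a Ras GTPase-activating protein (0.51), and the kinase gene *Src* (0.36) higher and *Yes1* (-0.51) and *Nedd4l* (-0.41) lower.

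The pattern of each gene over the 28 sums of library and gate was compared with that of 8264 genes by Pearson correlation of log2(CPM + 1), as a description of sums that share libraries. The genes most like *Reln* were *Rcan2* (0.947), *Cacna2d2* (0.931), *Car10* (0.919), *Eya2* (0.909) and *Cntnap2* (0.904), of which *Cacna2d2* was among the Cajal-Retzius markers. Those most like *Lrp8* were *Lzts1* (0.955), *Ago1* (0.949), *Picalm* (0.908), *Rbfox3* (0.896) and *Kdm1a* (0.894). *Vldlr* was most like *B3galnt1* (0.931), *Apba1* (0.920), *Mblac2* (0.905), *Sptbn1* (0.884) and *Lrch1* (0.875), and *Dab1* most like *Sema4d* (0.926), *Hs6st2* (0.915), *Fbn2* (0.911), *Slc4a4* (0.909) and *Igsf3* (0.907). Between the 4 genes the values ran from -0.508 (*Reln* and *Dab1*) to 0.294 (*Vldlr* and *Dab1*).

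The second question was whether the genes differed between the genotypes. Over all retained nuclei, *Reln* was at 796 and 596 CPM (Dnmt1 KO) and 440.3 and 489.7 CPM (control). The means were 696 ± 141 and 465 ± 35.0 CPM (SD, n = 2 each). Its log2 difference between genotypes was 0.56 (SE 0.172) and did not pass the threshold (edgeR adjusted p 0.649), nor did any of the 21516 genes tested (0%). At an unadjusted p under 0.05 there were 1612, and DESeq2 called 205 genes, none of the 4 among them. Under a filter on mapped reads the *Reln* value was 1.05 (adjusted p 0.680). Without the Cajal-Retzius gate, *Reln* was at 163 and 113 CPM (Dnmt1 KO) against 108 and 97.5 CPM (control). The 7 Cajal-Retzius markers summed to 96.8 and 89.7 CPM in Dnmt1 KO and to 73.7 and 73.3 CPM in control libraries, and their part in the difference of *Reln* was not tested.

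**Figure D5:**
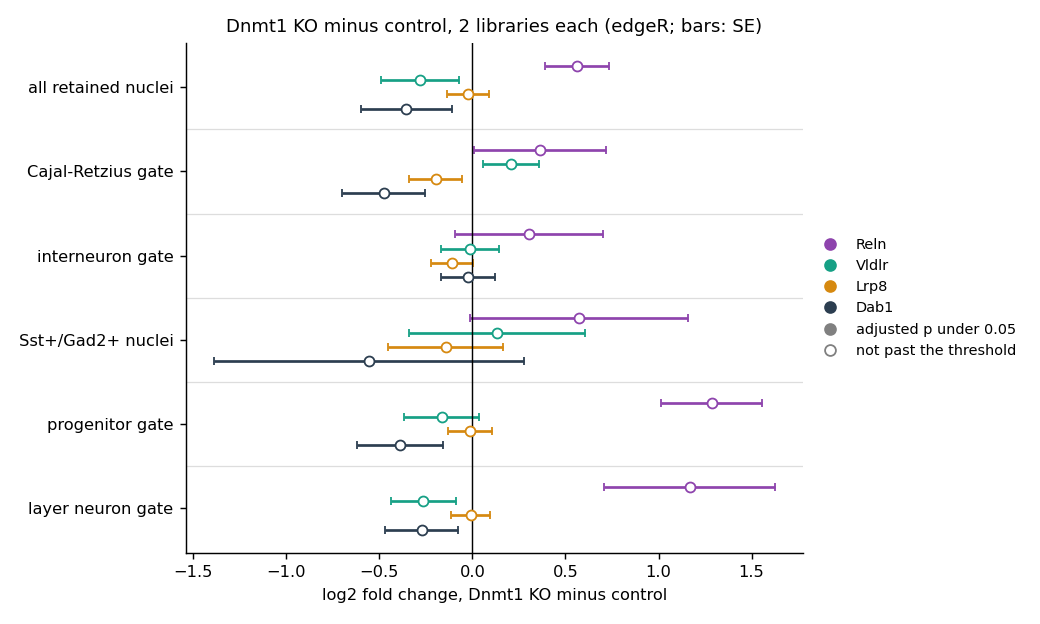
Log2 fold changes of the 4 genes between Dnmt1 KO and control libraries (2 each) with their standard errors (edgeR), in all retained nuclei and 5 populations. The populations come from the same libraries and all retained nuclei include the others, so equal signs are not separate observations. All points are open, as none passed an adjusted p of 0.05, *Reln* has positive values from 0.30 to 1.29 in all 6, and *Dab1* and *Lrp8* have negative values in all 6, while under at least 1 alternative the sign turned in 3 populations for *Reln*, in 3 for *Dab1* and in all 6 for *Lrp8*.

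In the Cajal-Retzius gate the levels of *Reln* given above overlapped between the genotypes (16654 ± 5160 CPM in Dnmt1 KO and 12988 ± 1959 CPM in control, SD, n = 2 each). The genotypes differed by 0.36 on the log2 scale (SE 0.353, edgeR adjusted p 0.749), and 0% of 11860 genes were called, with 1194 at an unadjusted p under 0.05 and 93 called by DESeq2. Without Dnmt1 KO replicate 1 it was -0.01. In nuclei with 5 or more *Trp73* transcripts the Dnmt1 KO libraries were the highest and the lowest of the 4. Choroid plexus and cortical hem markers differed between the libraries in this gate and were highest in Dnmt1 KO replicate 2. The 7 markers summed to 353 and 1454 CPM in Dnmt1 KO and to 142 and 81.4 CPM in control libraries, and *Ttr*, which defines choroid plexus, reached 782 CPM in Dnmt1 KO replicate 2 against 0.422, 0.428 and 0 CPM in the other libraries. With nuclei that carried choroid plexus genes left out, the log2 fold change of *Reln* was 0.52 (adjusted p 0.515), a comparison chosen after the data were seen. *Dab1* had a value of -0.48 (SE 0.225, edgeR adjusted p 0.532), *Lrp8* -0.20 and *Vldlr* 0.21. Nuclei with a single *Trp73* transcript, which had the highest *Dab1* of the gate, were 41 of 139 and 108 of 368 nuclei in Dnmt1 KO and 42 of 106 and 79 of 136 in control. With 5 or more *Trp73* transcripts the *Dab1* levels given above overlapped between the genotypes, and with at least 2 transcripts per gate gene the log2 value turned to 0.14 (adjusted p 0.907).

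In interneurons *Reln* overlapped between genotypes (647 ± 263 and 539 ± 233 CPM, SD, n = 2 each; log2 fold change 0.30, SE 0.397, edgeR adjusted p 0.933). Of 15290 genes 0% were called, 778 were at an unadjusted p under 0.05, and 12 were called by DESeq2. *Lrp8* (-0.11), *Dab1* (-0.02) and *Vldlr* (-0.01) had values near 0 in this gate. In *Sst*+/*Gad2*+ nuclei *Reln* was at 2486 and 631 CPM (Dnmt1 KO) and 941 and 1239.8 CPM (control), so the Dnmt1 KO libraries were the highest and the lowest. On the log2 scale the difference was 0.57 (SE 0.586, edgeR adjusted p 1.000), with 0% of 7217 genes called, 211 at an unadjusted p under 0.05 and 0 called by DESeq2. It was 1.27 without Dnmt1 KO replicate 2 and -0.73 without Dnmt1 KO replicate 1. *Dab1* was at 76.1 CPM in Dnmt1 KO replicate 1, from 18 transcripts in 16 nuclei, against 811 CPM in Dnmt1 KO replicate 2 and 823 and 581 CPM in the controls. Its log2 difference was -0.56 (SE 0.831, edgeR adjusted p 1.000), and -3.13 without Dnmt1 KO replicate 2. Both comparisons without that library gave an edgeR adjusted p under the threshold (0.0450 for *Reln* and 0.00534 for *Dab1*), but they rest on 1 Dnmt1 KO library with 16 nuclei, and the control libraries alone gave the spread. *Adarb2*, which marks the other class of interneurons, was at 8.46, 261, 918 and 23.1 CPM in these nuclei.

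The largest genotype values of *Reln* were in the 2 gates with low levels. In progenitors it was at 139.4 and 97.7 CPM (Dnmt1 KO) and 59.7 and 38.4 CPM (control). On the log2 scale the genotypes differed by 1.29 (SE 0.271, unadjusted p 0.00464, edgeR adjusted p 0.617), and 0% of 17013 genes were called, with 1357 at an unadjusted p under 0.05 and 97 called by DESeq2. *Reln* was among the genes that DESeq2 called (1.29, adjusted p 0.00187). It was also among the 706 genes that edgeR called in this gate without a low-count filter (1.29, adjusted p 1.20e-16), against 0 with it. Without Dnmt1 KO replicate 2 it was 1.51 (adjusted p 0.00109), from a single Dnmt1 KO library that was assumed to vary like the controls. Within batch 1, without control replicate 2, it was 0.99 (adjusted p 1.000), and without nuclei that met more than 1 gate it was 1.99 (adjusted p 0.616). Nuclei with at least 10 *Reln* transcripts were 6.85% and 3.58% of the intermediate progenitors of the Dnmt1 KO libraries (67 and 48 nuclei). In the controls they were 2.08% and 1.80% (19 and 13 nuclei). In the other intermediate progenitors *Reln* had levels of 36.5 and 24.1 CPM against 21.9 and 21.4 CPM. The 7 choroid plexus and cortical hem markers summed to 156 and 149.5 CPM in Dnmt1 KO and to 72.5 and 107.7 CPM in control progenitors, and their part in this difference was not tested. *Dab1* in progenitors was at 1042 and 1578 CPM (Dnmt1 KO) and 1628 and 1842 CPM (control). Its log2 difference was -0.39 (SE 0.229, edgeR adjusted p 0.671). It passed without a low-count filter (-0.39, adjusted p 0.0480) and without Dnmt1 KO replicate 2 (-0.73, adjusted p 0.00426, again with 1 Dnmt1 KO library), was -0.11 without Dnmt1 KO replicate 1, and was -0.07 with the filter on mapped reads and -0.00 without nuclei of more than 1 gate.

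In layer neurons *Reln* was at 99.4 and 38.6 CPM (Dnmt1 KO) and 34.7 and 28.1 CPM (control), with Dnmt1 KO replicate 1 far from the others. The fitted log2 difference was 1.17 (SE 0.457, edgeR adjusted p 0.789), and 0% of 18598 genes were called, with 1088 at an unadjusted p under 0.05 and 71 called by DESeq2. Without Dnmt1 KO replicate 1 it was 0.31. It was among the 646 genes that edgeR called in this gate without a low-count filter (1.17, adjusted p 9.59e-13), against 0 with it. Deep-layer nuclei with at least 10 *Reln* transcripts numbered 93 and 64 (Dnmt1 KO) and 38 and 39 (control). In the other deep-layer nuclei *Reln* was at 47.4 and 19.7 CPM against 21.4 and 16.2 CPM. Over the whole layer neuron gate, *Dab1* had a value of -0.27 (SE 0.196, edgeR adjusted p 0.809) and *Vldlr* of -0.26 (SE 0.175, edgeR adjusted p 0.799). With 1 library left out at a time, these ran from -0.46 to -0.06 and from -0.48 to -0.08. The deepest library, control replicate 2, also the only library of batch 2, had the highest level of both genes. *Lrp8* was at 268 and 244 CPM against 265 and 260.0 CPM, a log2 fold change of -0.01 (SE 0.106, edgeR adjusted p 0.991).

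Since *Dnmt1* was deleted in the *Sst* lineage, the genotype difference was compared between interneurons and layer neurons. The interneuron gate held 360 and 1619 nuclei (Dnmt1 KO) and 1300 and 517 nuclei (control), against 16, 136, 40 and 27 *Sst*+/*Gad2*+ nuclei. Most of the gate thus lay outside that class, and the comparison is not a test of the targeted cells alone. The difference of the log2 fold changes was -0.80 for *Reln* (SE 0.460), 0.25 for *Dab1* (SE 0.220), 0.24 for *Vldlr* (SE 0.141) and -0.09 for *Lrp8* (SE 0.158), each with an edgeR adjusted p of 1.000. Of 18828 genes 0% were called, 322 were at an unadjusted p under 0.05, and 0 were called by DESeq2. Of the pathway list, 0 of 28 to 35 tested genes passed the threshold in any of the 6 genotype comparisons with edgeR. At an unadjusted p under 0.05 there were 8 of 35 over all nuclei (7.49% of all genes), 5 of 34 in interneurons (5.09%), 5 of 34 in layer neurons (5.85%) and 5 of 34 in progenitors (7.98%). In the Cajal-Retzius gate there were 4 of 33 (10.1%), and in *Sst*+/*Gad2*+ nuclei 0 of 28 (2.92%). The median log2 fold change of the list was -0.11 over all nuclei, against -0.01 over all genes.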

How the data were processed

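Nuclei of frozen medial neocortex were isolated on a sucrose gradient, fixed and barcoded with the Parse Evercode chemistry. The deposited values are transcript counts per gene and barcode, which the authors made with the Trailmaker pipeline on the mouse genome mm39. The version of the aligner is not given in the sources used here, nor is whether counting used strand or how intronic reads were assigned. The submitters' processing notes name R 4.4.1 and Seurat 5.0.1.9001. Retained barcodes held 1500 to 60000 transcripts and at most 10% mitochondrial transcripts, a limit that removed 0 nuclei. Scrublet doublet calls (scanpy 1.11.5, expected rate 5%) were used in an alternative only.

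Gates came from marker transcripts. The Cajal-Retzius gate had 1 or more *Trp73* transcripts. Interneurons had *Lhx6* (MGE) or *Adarb2* without *Lhx6* (CGE), together with *Gad1* or *Gad2*. The other gates had neither *Gad1* nor *Gad2*: intermediate progenitors had *Eomes*, radial glia *Pax6* with *Hes5*, *Slc1a3* or *Sox2*, and layer neurons *Neurod2*, *Neurod6* or *Slc17a7*, with *Fezf2*, *Tle4* or *Foxp2* (deep) or, without these, *Cux2* (upper). The upper gate was narrowed to *Cux2* after the results had been seen, since another gene first planned for it is not reported here. Vascular nuclei had at least 2 of *Flt1*, *Kdr*, *Cldn5*, *Pecam1*, *Rgs5* and *Pdgfrb*. Microglia had at least 2 of *Csf1r*, *Cx3cr1*, *P2ry12*, *C1qa*, *Ptprc* and *Tyrobp*. Counts were summed per library and gate and tested with edgeR 4.0.16 (quasi-likelihood, TMM, filterByExpr, R 4.3.3) with Benjamini-Hochberg adjustment over all genes tested, leaving out genes that define a gate, at a threshold of 0.05. The SE printed with edgeR values is the absolute log2 fold change divided by the square root of the F statistic. Tests between genotypes had 2 libraries against 2 and no covariate, and tests between gates had library as a block. In the latter, interneurons, progenitors and layer neurons each entered as the equal-weight mean of their 2 gates. Their log2 values can thus differ from those of the summed levels printed beside them. Shares of nuclei carry exact binomial intervals of 95%, which cover counting error only, and nuclei were thinned to 1500 transcripts where depths were compared. Alternatives were DESeq2 1.42.0, no low-count filter, at least 2 transcripts per gate gene, a filter on mapped reads, nuclei of more than 1 gate or doublet calls left out, the replicate number as a block, and each library left out. Leaving out nuclei with choroid plexus markers, levels without the Cajal-Retzius gate and the endothelial nuclei were chosen after seeing the data.

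Named genes were the 4 genes, at most 5 called genes of the pathway list per comparison by size of change, *Trp73*, *Lhx6*, *Adarb2*, *Sst* and *Dnmt1* as checks, and the 5 genes most correlated with each member among those with a mean of at least 10 CPM. The members and lists were chosen with earlier results of these data known. The scripts were tested on simulated data.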

Additional observations from a re-analysis of the deposited data

How the results depend on the processing

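Between gates, 269 of 308 log2 values of the 4 genes kept their direction and their side of the threshold under the alternatives, and between genotypes 226 of 271 did. With DESeq2, *Vldlr* passed in radial glia against intermediate progenitors (0.29) and in deep against upper layers (0.33), *Reln* passed between genotypes in progenitors (1.29), *Vldlr* between genotypes turned to -0.03 in *Sst*+/*Gad2*+ nuclei and to 0.00 in interneurons, as did *Lrp8* in layer neurons (0.00), and genotype calls numbered 93 (Cajal-Retzius), 205 (all nuclei), 12 (interneurons), 71 (layer neurons) and 97 (progenitors). Without the low-count filter they numbered 1143, 70, 337, 646 and 706, and 53 in *Sst*+/*Gad2*+ nuclei, *Reln* passed in layer neurons (1.17) and progenitors (1.29) and *Dab1* in progenitors (-0.39), and between gates *Vldlr* passed at -0.30 (Cajal-Retzius against layer neurons) and 0.40 (deep against upper) and *Lrp8* turned to 0.02 (deep against upper). Calls between deep and upper layers were then 83.4% higher in deep layers, against 63.7% with it.

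With at least 2 transcripts per gate gene, *Lrp8* (-0.26, Cajal-Retzius against interneurons), *Vldlr* (-0.51, Cajal-Retzius against layer neurons), *Dab1* (0.77) and *Vldlr* (0.80, radial glia against intermediate progenitors) passed, *Dab1* (-0.12) and *Lrp8* (-0.30) no longer passed in MGE against CGE, where 1685 genes were called. Genotype values turned for *Dab1* in the Cajal-Retzius gate (0.14), *Reln* in *Sst*+/*Gad2*+ nuclei (-1.04), *Vldlr* in interneurons (0.10) and the difference of *Dab1* between gates (-0.07), and nuclei in no gate held 3.62% of *Reln*. With the filter on mapped reads, *Dab1* passed at 0.54 (Cajal-Retzius against interneurons) and *Vldlr* at 0.50 (radial glia against intermediate progenitors), *Reln* no longer passed at 0.58 (progenitors against layer neurons), genotype values turned for *Dab1* (1.10) and *Lrp8* (0.02) in *Sst*+/*Gad2*+ nuclei, *Dab1* in interneurons (0.30) and *Vldlr* in progenitors (0.16), and the mean share of *Reln* was 74.6% in the Cajal-Retzius gate and 2.52% in no gate. With nuclei of more than 1 gate left out, *Dab1* turned to -0.70 and *Lrp8* passed at -0.58 (Cajal-Retzius against interneurons), *Vldlr* passed at -0.44 (Cajal-Retzius against layer neurons), *Lrp8* at -0.27 (progenitors against layer neurons), *Dab1* at 1.00 and *Vldlr* at 0.97 (radial glia against intermediate progenitors), and genotype values turned for *Lrp8* (0.03) and *Reln* (-0.06) in the Cajal-Retzius gate and *Lrp8* (0.19) and *Vldlr* (0.39) in progenitors. Without doublet calls *Dab1* passed at 0.78 (Cajal-Retzius against interneurons) and *Vldlr* at 0.39 (radial glia against intermediate progenitors), and genotype values turned for *Dab1* in *Sst*+/*Gad2*+ nuclei (0.19) and interneurons (0.10) and *Vldlr* in interneurons (0.05). Without choroid plexus nuclei *Dab1* (0.34, Cajal-Retzius against interneurons) and *Vldlr* (-0.33, Cajal-Retzius against layer neurons) passed. The cause of these changes was not tested.

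Leaving out 1 library each gave 3354 to 5194 calls for the Cajal-Retzius gate against interneurons and 1593 to 2651 for deep against upper. The log2 values ran from 0.18 to 0.38 (*Dab1*) and -0.43 to -0.30 (*Vldlr*) for the Cajal-Retzius gate against interneurons, -0.34 to -0.11 (*Vldlr*) against layer neurons, -0.04 to 0.14 (*Dab1*) for radial glia against intermediate progenitors, -0.13 to 0.01 (*Lrp8*) and 0.31 to 0.34 (*Vldlr*) for deep against upper, -0.29 to -0.16 (*Lrp8*) for interneurons and -0.06 to 0.02 (*Lrp8*) and 0.49 to 0.69 (*Reln*) for progenitors against layer neurons, and -0.53 to -0.33 (*Lrp8*) and -0.27 to -0.18 (*Vldlr*) for MGE against CGE. Where a genotype was left with 1 library, that library was assumed to vary like the other group. Genotype calls ran from 0 to 894 (Cajal-Retzius), 0 to 59 (*Sst*+/*Gad2*+), 0 to 188 (all nuclei), 0 to 3 (layer neurons) and 0 to 1095 (progenitors), with the highest values without Dnmt1 KO replicate 1 (894, 188 and 3) or replicate 2 (1095 and 59). Genotype values of *Dab1* ran from -3.13 to 0.26 (*Sst*+/*Gad2*+), -0.16 to 0.14 (interneurons) and -0.73 to -0.11 (progenitors), of *Lrp8* from -0.49 to 0.32, -0.21 to 0.01 and -0.09 to 0.08 in the same order, -0.11 to 0.07 (all nuclei) and -0.10 to 0.07 (layer neurons), of *Reln* from -0.73 to 1.27, -0.19 to 0.86 and 0.99 to 1.66 and -0.01 to 0.66 (Cajal-Retzius), and of *Vldlr* from -1.31 to 0.49, -0.24 to 0.16 and -0.47 to 0.08. The difference of *Lrp8* between gates ran from -0.21 to 0.02, with 0 to 2 genes called. Same-numbered libraries share only a number (correlation of deviations 0.0799), and the replicate block gave 0 genotype calls in all 6 populations and turned *Vldlr* in *Sst*+/*Gad2*+ nuclei to -0.14. *Vldlr* could not be fitted in *Sst*+/*Gad2*+ nuclei under the filter on mapped reads.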
